A study of Sus scrofa with 32 samples.

Results

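The regions described here carried an H3K27me3 peak in both libraries of untreated, proliferating pig muscle satellite cells. Peaks of all 8 H3K27me3 libraries were merged wherever they shared at least 1 bp, which gave 28102 regions, and the 847 regions with a peak in each WT_0h library were kept. The members were thus chosen by the WT_0h peak lists, so every comparison of H3K27me3 with WT_0h below is a description without a test.

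The study profiled H3K4me3, H3K27ac and H3K27me3 in muscle satellite cells, the resident stem cells of skeletal muscle, by CUT&Tag, in which a tethered transposase cuts DNA beside an antibody-bound mark. WT_0h and WT_60h are untreated cells in proliferation and after 60 h of differentiation. CBP_0h and CBP_60h are cells given SGC-CBP30, which binds the bromodomains of 2 lysine acetyltransferases, CBP and p300. The dose is labelled 5 uM/ml, for 48 h of proliferation or 60 h of differentiation. Each condition had 2 libraries per mark, 24 in all, and 8 IgG libraries without a peak list were not analysed here. Nothing in the labels says whether replicates came from separate cultures, so p-values measure only the spread between these libraries, which may be technical. The labels also name the cells both as pig muscle satellite cells and as a C3H line, and they mark the 60 h samples as proliferating as well, so the groups follow the sample titles. All groups lack any stated genetic change: "WT" and "CBP" separate cells without and with the compound.

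H3K27me3 is written by Polycomb repressive complex 2 through EZH1 or EZH2 and bound by CBX proteins of Polycomb repressive complex 1. It typically covers CpG-rich starts of developmental regulators that a cell type does not use, and in muscle stem cells it lies over genes of other lineages and over some late muscle genes. CBP and p300 acetylate the same lysine, which cannot be acetylated and methylated at once. H3K4me3 marks active or poised promoters, and its presence with H3K27me3 in one region is often called bivalency, although bulk data cannot tell both marks on one nucleosome from a mixture of cells.

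H3K4me3 within 1 kb of gene ends was used to check the labelled cell type. In both WT_0h libraries 6 of 8 satellite cell and myoblast markers carried it, PAX7, MYF5 and MYOD1 among them, and ITGA7 and VCAM1 did not. CBP_0h had it at 5 of the 8, with none at MYOD1, and its summed length over the 8 genes was 8.62 to 8.76 kb in WT_0h, 12.4 kb in WT_60h, 5.74 to 5.75 kb in CBP_0h and 11.127 to 12.4 kb in CBP_60h. None of 4 markers of differentiated muscle had it in WT_0h or CBP_0h. MYOG, ACTA1 and TNNT2 had it in both WT_60h and both CBP_60h libraries, and CKM had none in any library. Summed over the 4 it covered 8.44 to 8.47 kb in WT_60h and 5.13 to 5.19 kb in CBP_60h. All 4 endothelial markers were without it, while 3 of 5 fibroblast markers, 1 of 4 adipocyte markers and 1 of 4 leukocyte markers had it in both WT_0h libraries. Summed over the fibroblast markers it covered 3.93 to 4.11 kb in WT_0h, 3.88 to 4.01 kb in WT_60h, 2.74 to 2.91 kb in CBP_0h and 4.77 to 5.12 kb in CBP_60h, with none at LUM in any library. Over the adipocyte markers it covered 1.22 to 1.36, 1.16 to 1.17, 1.02 to 1.11 and 1.68 to 2.16 kb in the same order, with PLIN1 marked in CBP_60h alone and ADIPOQ and FABP4 in no library. Over the leukocyte markers it covered 2.42 to 2.53, 3.52 to 3.55, 1.82 to 2.08 and 3.31 to 3.49 kb, with PTPRC and CD3E in no library. The part of other cells in the results was not tested.

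The H3K27me3 lists differed widely in length, and their read depths were not known here. WT_0h had 1338 and 2660 peaks, WT_60h had 8922 and 6174, CBP_0h had 19317 and 14723, and CBP_60h had 13258 and 12336. The CBP_0h lists stood apart: 2441 and 1233 of their peaks reached a deposited −log10 q of 5, against 0 to 28 in the other 6 lists. Members were a median of 7.24 kb wide (0.358 to 39.2 kb), and because the merge used all 8 lists the CBP_0h peaks set most outlines. H3K27me3 covered 7.48 and 7.16 Mb of the 7.81 Mb inside members in the CBP_0h libraries.

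Regulators of other lineages were often at members. Of 19550 protein-coding genes in the gene table, 766 (3.92%) had their annotated span within 5 kb of a member, and 710 of the 847 members (83.8%) had such a gene. At least 1 annotated gene end lay inside 458 members, and 156 lay inside 1 gene without touching an end. Homeobox factors outside the HOX clusters had 78 of 121 genes (64.5%) at a member. PAX, T-box, SOX, FOX and GATA factors had 40 of 66 (60.6%), basic helix-loop-helix and zinc finger developmental factors 44 of 89 (49.4%), and HOX genes 14 of 36 (38.9%). Of the signalling lists, WNT pathway genes had 15 of 50 at members (30.0%), hedgehog, Notch and FGF genes 8 of 40, and TGF-beta, BMP and activin genes 7 of 43 (16.3%). Neuronal and synaptic genes reached 24.4% (21 of 86), ion channel genes 24.4% (22 of 90), and epithelial genes had 5 of 20 at members.

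Muscle lists stood at or below the 3.92% of all genes. No gene of 23 myogenic regulatory factors and partners lay within 5 kb of a member, and neither did any of 35 cell cycle genes. Among 44 contractile and sarcomere genes only ACTA1, the skeletal muscle alpha actin, was at a member (2.27%). Among 26 satellite cell and progenitor genes only BARX2, a homeobox factor, was (3.85%), and among 74 cytoplasmic ribosomal protein genes only RPL22 (1.35%). The member counted for RPL22 was not within 1 kb of that gene and held an annotated end of RNF207. The Polycomb list itself had 4 of 32 genes at members (12.5%): CBX8, PCGF1, PCGF6 and BMI1, all parts of Polycomb repressive complex 1. These lists were drawn up with earlier results of these data known, so the percentages describe the members and are no independent evidence.

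**Figure D1:**
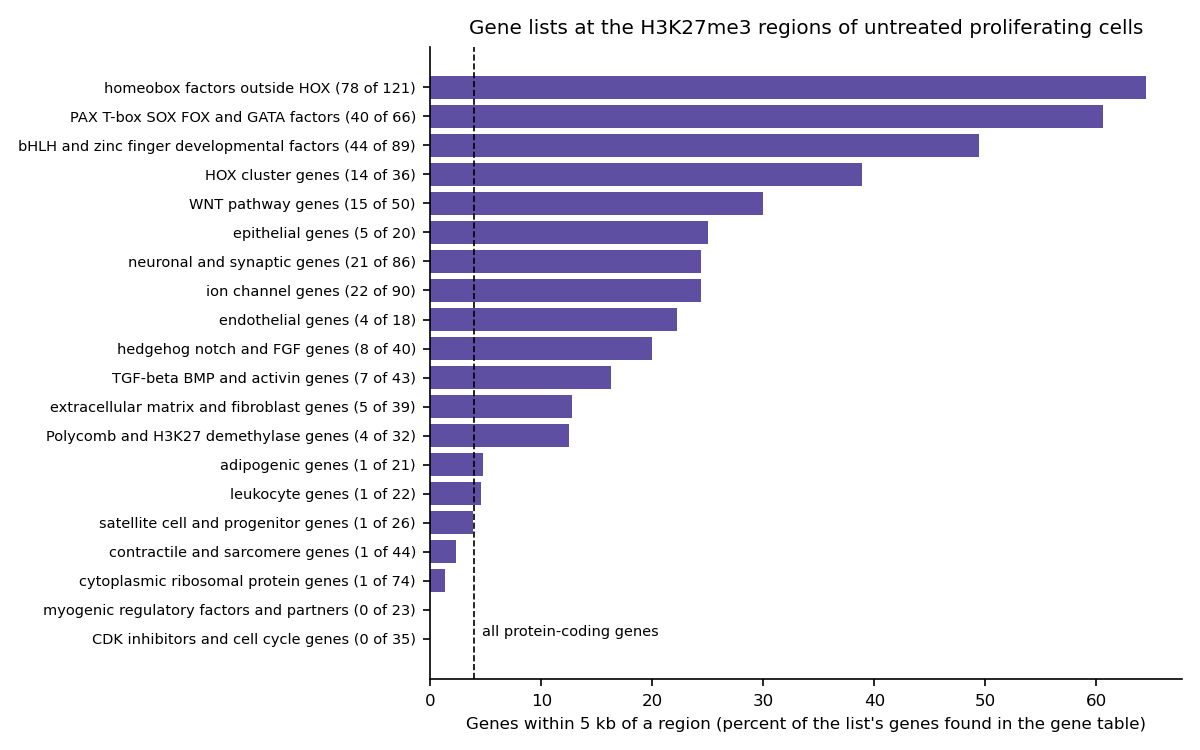
Percent of the genes of each of 20 lists that lie within 5 kb of a member, with the number of genes in brackets; the dashed line is the 3.92% of all protein-coding genes. Homeobox factors outside HOX are at the top with 64.5%, and no myogenic regulator or cell cycle gene is at a member.

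The longest domains of WT_0h lay at homeobox, basic helix-loop-helix and other tissue-defining factors. All coordinates are those of the deposited lists, on Sscrofa11.1. The member with the longest mean length was at EVX1 (chr18:45315342-45340392), a homeobox factor of the spinal cord, and it held both annotated ends of the gene. Its peaks covered 7.62 and 16.4 kb in WT_0h, 5.93 and 6.03 kb in WT_60h, 25.04 and 24.70 kb in CBP_0h, and 5.08 and 6.65 kb in CBP_60h. Both CBP_0h values lay above those of the other 6 libraries, and both WT_0h values lay above those of the 60 h libraries.

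Next was a member beside HOXB8 and HOXB7, segment identity factors of the HOXB cluster (chr12:24869255-24905919). Peaks covered 4.86 and 18.3 kb there in WT_0h, 1.63 and 0.870 kb in WT_60h, 36.5 and 35.6 kb in CBP_0h, and 1.86 and 0.676 kb in CBP_60h. Here too all 4 libraries of 60 h were below both WT_0h libraries. HAND1, a basic helix-loop-helix factor of heart and trophoblast (chr16:68667218-68688349), had 6.09 and 13.3 kb in WT_0h, 7.58 and 6.82 kb in WT_60h, 20.4 and 21.1 kb in CBP_0h, and 6.38 and 6.92 kb in CBP_60h. At HAND1 the 60 h lengths lay between the WT_0h replicates.

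OLIG2, which specifies oligodendrocytes and motor neurons (chr13:196591917-196609937), had 6.99 and 11.7 kb in WT_0h, 1.59 and 1.02 kb in WT_60h, 18.0 and 18.0 kb in CBP_0h, and 2.94 and 4.79 kb in CBP_60h. The kidney and gonad factor WT1 (chr2:28404398-28423130) had 6.86 and 11.5 kb in WT_0h, 3.40 and 1.36 kb in WT_60h, and 2.04 and 1.52 kb in CBP_60h. Both were shorter at 60 h than in either WT_0h library. NKX2-5, a cardiac homeobox factor (chr16:51070697-51094627), instead had 5.65 and 12.6 kb in WT_0h, 4.54 and 2.52 kb in WT_60h, and 9.01 and 6.79 kb in CBP_60h.

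The other members among the 12 longest were at HOXB13, MSX1, DLX6 with DLX5, GATA4, MNX1 with NOM1, and LOC100737217 with ARHGEF1. In all 12 the CBP_0h peaks were longest, from 17.5 to 38.7 kb per library. WT_0h replicate 2 was longer than replicate 1 in each of them, as it was over the members in sum (2.48 against 1.10 Mb). The 12 were picked for long WT_0h peaks, which biases any comparison with WT_0h toward shorter lengths at 60 h.

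**Figure D2:**
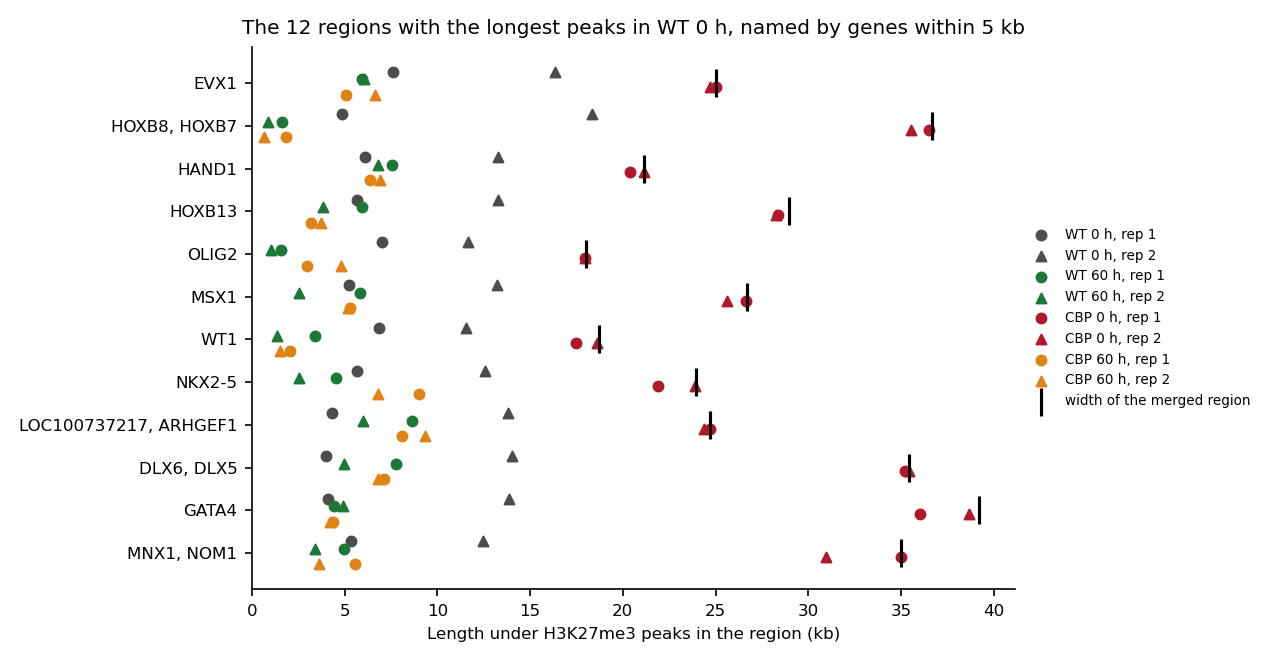
Length under H3K27me3 peaks, in kb, in each of the 8 libraries for the 12 members with the longest mean WT_0h length, named by genes within 5 kb; circles are replicate 1, triangles replicate 2 and vertical bars the width of the merged region. CBP_0h points sit near the full width in each member, and the 60 h points sit at or below 9.31 kb.

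Most members kept an H3K27me3 peak in every condition. A peak was present in all 6 other libraries in 676 members (79.8%) and in none of them in 3. Both WT_60h libraries had a peak in 730 members (86.2%) and neither had one in 53. Both CBP_0h libraries had one in 839 (99.1%), and both CBP_60h libraries in 756 (89.3%), with neither in 39. Only 13 members lacked a peak in all 4 libraries of 60 h. Another 31 had none in WT_60h but one in both CBP_60h libraries, and 21 had the reverse.

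Persistence went with length at the start and with the width of the merged region, and the 2 were not separated. Members with a peak in all 6 other libraries had a median WT_0h length of 1.74 kb, those with fewer 0.886 kb, those without a WT_60h peak 0.770 kb and those without a CBP_60h peak 0.710 kb. Their median widths were 7.92, 4.50, 3.59 and 2.88 kb in the same order, and a wider region touches a peak more easily. The 3 members with no other peak, at chr1:235034126-235034780, chr16:46566961-46567328 and chr12:55306513-55306870, were 0.655, 0.368 and 0.358 kb wide and had no gene within 5 kb. Just outside the rule stood 751 regions with a peak in exactly 1 WT_0h library, where the median length was 0.586 kb. Of those, 498 (66.3%) had a peak in both WT_60h libraries, 734 (97.7%) in both CBP_0h libraries and 540 (71.9%) in both CBP_60h libraries.

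The covered length told a different story from the presence of a peak. Inside members, peaks covered 1.10 and 2.48 Mb in WT_0h, 2.01 and 1.499 Mb in WT_60h, 7.48 and 7.16 Mb in CBP_0h, and 1.9997 and 1.85 Mb in CBP_60h. CBP_0h exceeded every other library, and the WT_60h and CBP_60h lengths lay inside the range of the WT_0h replicates. Of the bases under a peak in both WT_0h libraries, 99.8% and 99.5% were covered in CBP_0h, 60.1% and 49.5% in WT_60h, and 53.7% and 49.97% in CBP_60h. Length inside members split into 1.20 and 0.967 Mb under a WT_0h peak and 0.803 and 0.532 Mb outside any in WT_60h, and into 1.07 and 0.998 Mb and 0.928 and 0.852 Mb in CBP_60h. In CBP_0h 2.51 and 2.50 Mb lay under a WT_0h peak and 4.97 and 4.66 Mb outside.

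**Figure D3:**
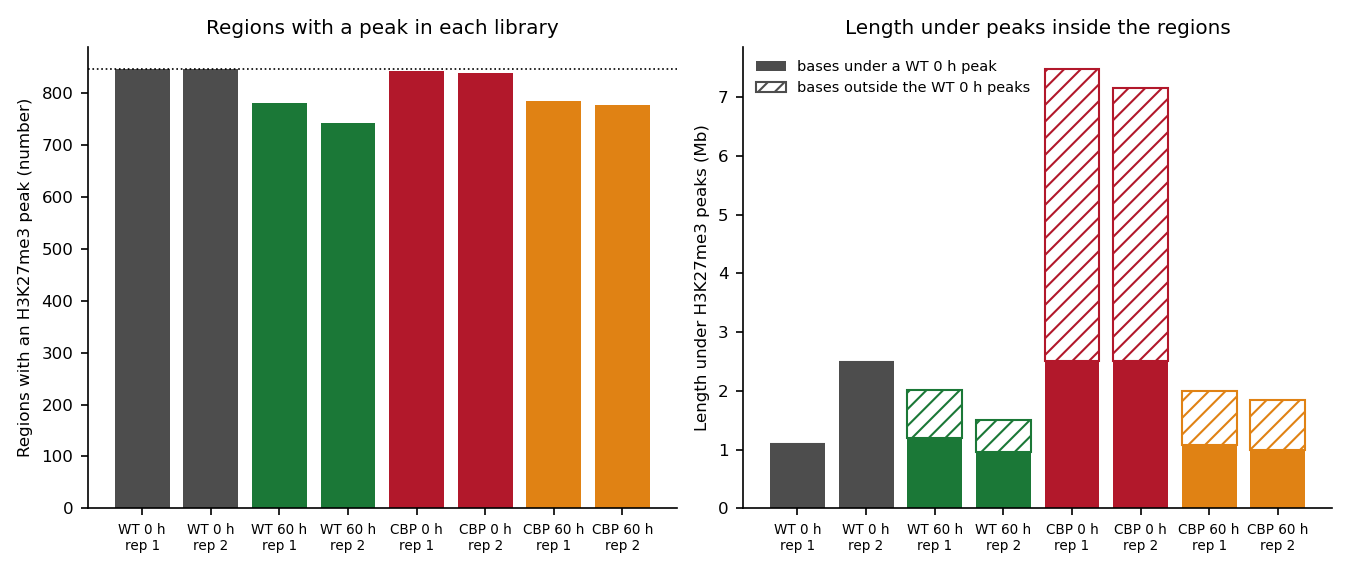
Number of members with an H3K27me3 peak (left, dotted line at 847) and length under peaks inside members in Mb (right), for each library; solid bars are bases under a WT_0h peak and hatched bars bases outside them. The CBP_0h libraries reach 7.48 and 7.16 Mb, and the 4 libraries of 60 h lie between 1.499 and 2.01 Mb.

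The members held nearly all of the shortest list and at most 32.1% of the 6 lists of the other conditions. They held 99.1% and 79.6% of the H3K27me3 length in WT_0h, 27.7% and 32.1% in WT_60h, 21.6% and 28.5% in CBP_0h, and 19.3% and 19.6% in CBP_60h. Between the 60 h groups, 19.5% ± 0.243 (SD, n = 2) of the CBP_60h length and 29.9% ± 3.15 (SD, n = 2) of the WT_60h length lay in members, with no overlap of the groups (exact permutation test, two-sided, p = 0.3333, the smallest that 2 against 2 allows). Length outside members was 7.97 Mb ± 0.561 in CBP_60h and 4.21 Mb ± 1.47 in WT_60h (SD, n = 2; exact permutation p = 0.3333). Length inside members was 1.92 Mb ± 0.106 in CBP_60h and 1.75 Mb ± 0.360 in WT_60h (SD, n = 2), with overlapping groups (exact permutation p = 1). The share of members with a peak was 92.3% ± 0.668 in CBP_60h and 90.0% ± 3.17 in WT_60h (SD, n = 2; exact permutation p = 0.667). Both of these last differences turned round when each list was cut to its 1338 strongest peaks: 302.5 members on average then had a peak in CBP_60h and 397.5 in WT_60h, with 0.446 and 0.631 Mb inside members.

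The question of the inhibitor in differentiating cells was addressed region by region with limma on log2 of the length plus 500 bp, without the WT_0h libraries and over 15825 regions. Calls are Benjamini-Hochberg adjusted p below 0.05, and 843 of the 847 members passed the filter of 200 bp in 2 libraries. In CBP_60h against WT_60h, 146 members were called (17.3%), 87 longer and 59 shorter, beside 17.2% of all regions tested (14.0% longer and 3.18% shorter). The members' share was near the background. No member was called without WT_60h replicate 2 or without either CBP_60h replicate, and quantile scaling gave 63 longer and 108 shorter, lists of equal length 54 and 103.

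Among the members called longer with the inhibitor at 60 h was DMBX1, a homeobox factor of the midbrain (chr6:164964550-164977752). It had no peak in either WT_60h library and 6.19 and 4.67 kb in CBP_60h, after 1.19 and 2.14 kb in WT_0h (limma adjusted p = 0.00273). The member at KREMEN2, a receptor for DKK proteins that restrain WNT signalling (chr3:39213340-39224617), likewise had none in WT_60h and 3.27 and 3.54 kb in CBP_60h (limma adjusted p = 0.00273). DSCAML1, a neuronal adhesion molecule, PRKCZ, an atypical protein kinase C, and a member with no gene on chromosome 5 were the others of the 5 largest. In each of these 5 both CBP_60h libraries exceeded both WT_60h libraries.

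The 5 largest decreases were beside POU3F3, a neural POU homeobox factor, at MEIS2, a HOX cofactor, at NKX1-2, at DGKI and at SMOC1. The MEIS2 member (chr1:134005434-134013314) had 1.03 and 1.19 kb in WT_0h, 2.23 and 2.26 kb in WT_60h, 6.64 and 6.87 kb in CBP_0h and no peak in CBP_60h (limma adjusted p = 0.00273). At NKX1-2 (chr14:133849779-133859710) WT_60h had 2.48 and 1.72 kb and CBP_60h none (limma adjusted p = 0.00388). All 10 of these calls, longer and shorter, were among those lost without WT_60h replicate 2 or either CBP_60h replicate.

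List counts cover every member within 5 kb of a gene of the list and stand against 14.0% longer and 3.18% shorter over all regions. Of all 843 members tested, 87 were longer and 59 shorter, with a median log2 change of 0.08. At PAX, T-box, SOX, FOX and GATA factors 8 of 52 members were called shorter in CBP_60h than in WT_60h and 1 longer, with a median log2 change of -0.17 against 0.05 over all regions. Members at basic helix-loop-helix and zinc finger factors gave 9 shorter and 3 longer of 53 (median -0.16), those at homeobox factors outside HOX 10 shorter and 7 longer of 103 (median -0.04), and ion channel members 4 longer and none shorter of 26 (median 0.24). Of the 5 members at Polycomb genes, 2 were called longer, and none of the 5 held an annotated end of those genes. The member within 5 kb of PCGF6, which held an end of the neurofilament gene INA, had 0.331 and 0.635 kb in WT_60h and 4.14 and 3.88 kb in CBP_60h (log2 change 2.21, SE 0.21, limma adjusted p = 0.00642). The one within 5 kb of CBX8 had 4.15 and 4.85 kb in WT_60h and 8.86 and 9.80 kb in CBP_60h (log2 change 0.98, SE 0.14, limma adjusted p = 0.0186). The groups did not overlap at either member. These and all other calls of these lists were lost without WT_60h replicate 2 or either CBP_60h replicate.

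Within treated cells, the members were shorter after differentiation. The merge that drew the regions used the CBP_0h peaks, which covered 7.48 and 7.16 Mb of the 7.81 Mb inside members. In this contrast CBP_0h thus starts near the full width of the members. How much of the decrease, or of its excess over all regions, follows from those outlines was not tested. CBP_60h against CBP_0h called 671 members shorter and 2 longer (79.8% of the 843 tested), beside 55.5% of all regions (44.8% shorter, 10.7% longer), with a median log2 change of -1.61 in members and -0.90 over all regions. Length inside members was 1.92 Mb ± 0.106 in CBP_60h and 7.32 Mb ± 0.224 in CBP_0h (SD, n = 2; exact permutation p = 0.3333, the smallest possible). The calls came to 280 without CBP_0h replicate 1 and 270 without replicate 2, and to 375 when only bases under WT_0h peaks were counted. Quantile scaling, which moved the median over all regions from -0.90 to -0.07, left 164 shorter and 77 longer. That scaling gives every library the same distribution of lengths, so these counts do not measure how far the decrease was shared.

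The largest decreases were at EBF2, a COE family factor of mesenchymal lineages, the HOXB5 to HOXB8 genes, MSX2, a homeobox factor of bone and limb, TTLL6, a tubulin glutamylase, and the member beside HOXB8 and HOXB7. The HOXB5 to HOXB8 member (chr12:24830779-24868578) held 7 annotated gene ends. Its peaks covered 0.876 and 8.89 kb in WT_0h, 4.05 and 3.38 kb in WT_60h, 37.8 and 36.2 kb in CBP_0h, and 0.901 and 0.788 kb in CBP_60h (CBP_60h against CBP_0h, log2 change -4.80, SE 0.12, limma adjusted p = 0.00089). The treated 60 h libraries were below both untreated 60 h libraries there. The 2 members called longer were at CD38, an NAD-consuming ectoenzyme, and SRD5A2, a steroid reductase. CD38 had 0.686 and 0.963 kb in CBP_0h and 1.47 and 1.52 kb in CBP_60h, and SRD5A2 had 2.05 and 2.29 kb and 3.84 and 3.11 kb. Neither call held when any 1 of the 6 libraries was left out.

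Shorter in CBP_60h than in CBP_0h were 48 of 52 members at PAX, T-box, SOX, FOX and GATA factors, 48 of 53 at basic helix-loop-helix and zinc finger factors, 92 of 103 at homeobox factors outside HOX and 8 of 8 at HOX genes, beside 44.8% of all regions. The median changes of these 4 lists were -2.28, -2.11, -2.07 and -2.78, against -1.61 over all members and -0.90 over all regions. At neuronal genes 17 of 22 were shorter and at ion channel genes 16 of 26, while of all 843 members tested 671 were. CBP_0h peaks set most member outlines, and these counts were not corrected for that. Values overlapped between CBP_0h and CBP_60h at the member with an end of RNF207, within 5 kb of RPL22 (7.10 and 6.28 kb in CBP_0h, 8.32 and 5.73 kb in CBP_60h). They also overlapped at CD8A, a T cell co-receptor (3.32 and 2.45 kb, then 3.03 and 3.15 kb).

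Some members gained most of their length outside the WT_0h peaks. In CBP_60h such length came to 8.06 kb ± 2.01 at LHX4, a LIM homeobox factor of the pituitary, and to 7.29 kb ± 2.21 at HCN4, a pacemaker channel (SD, n = 2). In WT_60h the most was on an unplaced scaffold without an annotated gene nearby, with 5.23 kb ± 1.87, and at NFAM1, an immune receptor, with 4.92 kb ± 0.516 (SD, n = 2). NFAM1 had 0.833 kb ± 0.0905 of such length in CBP_60h (SD, n = 2).

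The other 2 marks were not used to choose the members and were tested over all 8 libraries. H3K4me3 overlapped members more often than the merged regions as a whole. In at least 1 library 225 members (26.6%) had it, against 4.96% of all regions. In all 8 libraries 42 members had it (4.96%, against 1.05%). A wider region touches a peak more easily, and these shares were not matched for region width. H3K4me3 lay in 134 and 132 members in WT_0h, 167 and 163 in WT_60h, 62 and 64 in CBP_0h, and 137 and 136 in CBP_60h. The summed length was 134 kb ± 1.27 in WT_0h, 183 kb ± 11.0 in WT_60h, 52.3 kb ± 2.70 in CBP_0h and 140 kb ± 6.44 in CBP_60h (SD, n = 2), and no 2 groups overlapped in the 3 contrasts tested (exact permutation p = 0.3333 each). Of that length, 14.6% and 34.3% lay under an H3K27me3 peak of the same replicate number in WT_0h and 99.1% and 81.6% in CBP_0h. At 60 h the share was 43.4% and 28.3% in WT_60h and 31.6% and 28.4% in CBP_60h. Inside the 7.81 Mb of members, H3K27me3 peaks covered 1.10 and 2.48 Mb in WT_0h and 7.48 and 7.16 Mb in CBP_0h. In WT_60h they covered 2.01 and 1.499 Mb, and in CBP_60h 1.9997 and 1.85 Mb. The shares were not compared with what this cover alone would give.

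H3K27ac was rare in the members and in the other regions. None of 8 libraries had it in 827 members (97.6%), against 98.7% of all regions, and single libraries had it in 4 and 6 members in WT_0h, 12 and 10 in WT_60h, 2 and 1 in CBP_0h and 12 and 8 in CBP_60h. Its length was 1.90 kb ± 0.887 in WT_0h, 7.12 kb ± 1.69 in WT_60h, 0.354 kb ± 0.193 in CBP_0h and 5.16 kb ± 2.23 in CBP_60h (SD, n = 2). The whole H3K27ac lists covered 4.77 to 20.2 Mb, and the members held 0.0046% to 0.0575% of a list.

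**Figure D4:**
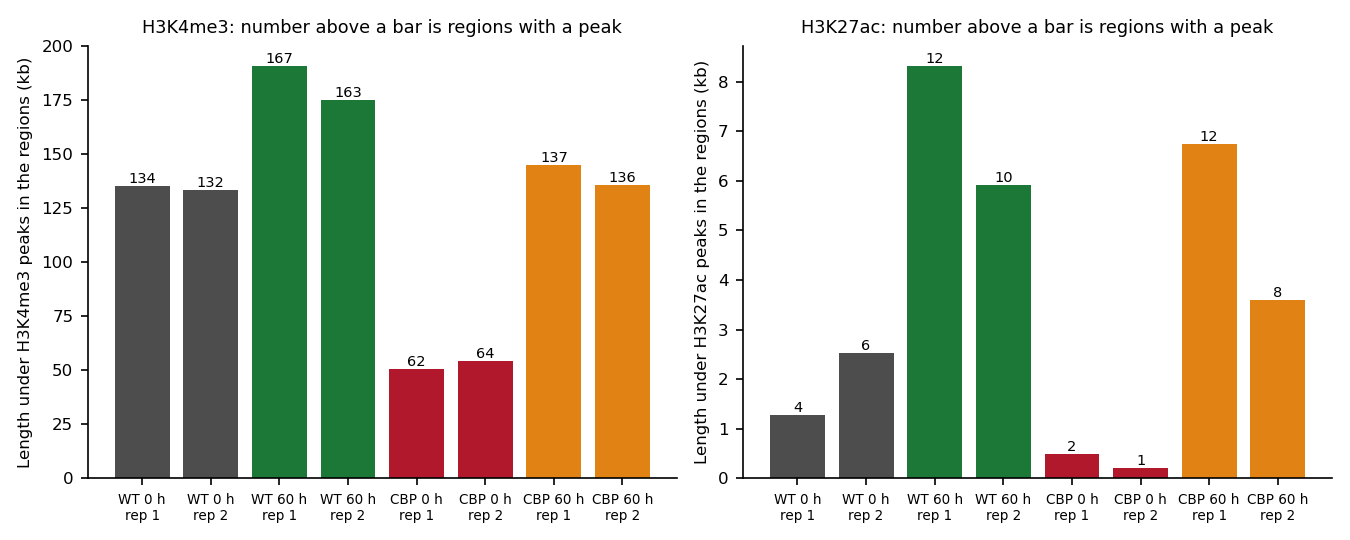
Length under H3K4me3 (left) and H3K27ac (right) peaks inside the members in kb for each library, with the number of members holding a peak above each bar. Both marks are lowest in CBP_0h, at 62 and 64 members for H3K4me3 and 2 and 1 for H3K27ac.

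With differentiation of untreated cells, H3K4me3 grew longer at more members than it grew shorter, as it did over all regions tested. WT_60h against WT_0h called 80 members longer and 34 shorter of the 202 that passed the filter, 56.4% beside 49.3% of the 1161 regions tested (36.4% longer, 12.8% shorter). In 52 members H3K4me3 was absent from WT_0h and present in both WT_60h libraries (6.14%, beside 1.11% of all regions). From 26 that had it in both WT_0h libraries it was lost (3.07%, beside 0.441%). Over all regions these counts were 313 and 124. Both WT_0h libraries had H3K4me3 in 119 members and in 672 of all regions, so the shares lost start from unlike numbers. Both WT_60h libraries had it in 152 members and in 902 of all regions, which likewise bears on the shares gained. Quantile scaling moved the median over all regions from 0.18 to -0.01 and gave 71 longer and 53 shorter. Longer calls fell to 52 and 51 without WT_60h replicate 1 or 2, and shorter calls to 19 and 17 without WT_0h replicate 1 or 2. A group without any listed base took part in 72 of the 114 calls.

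The largest gain was at ACTA1, the actin of the sarcomere (chr14:60410257-60416293), which lay wholly inside the member. H3K4me3 was absent from both WT_0h and both CBP_0h libraries and covered 4.55 and 4.26 kb in WT_60h and 2.01 and 1.97 kb in CBP_60h. Its H3K27me3 covered 0.792 and 4.59 kb in WT_0h, 0.549 and 0 kb in WT_60h, 6.02 and 5.75 kb in CBP_0h, and 1.12 and 0 kb in CBP_60h. The rise in H3K4me3 had a limma adjusted p of 1.81e-07, and the lower CBP_60h value a log2 change of -0.98 (SE 0.03, limma adjusted p = 2.27e-05).

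At EBF2 (chr14:10016317-10034761) H3K27me3 was short and H3K4me3 long at 60 h in both arms, and the reverse held at 0 h. H3K27me3 covered 3.09 and 8.79 kb in WT_0h, 1.13 and 0.687 kb in WT_60h, 16.7 and 18.4 kb in CBP_0h, and 0.289 and 0 kb in CBP_60h. H3K4me3 covered 0.230 and 0 kb in WT_0h, 5.19 and 4.82 kb in WT_60h, none in CBP_0h, and 6.39 and 5.99 kb in CBP_60h (WT_60h against WT_0h, log2 change 3.19, SE 0.19, limma adjusted p = 0.000163). H3K27ac was there only at 60 h, with 1.08 and 0.806 kb in WT_60h and 1.25 and 0.615 kb in CBP_60h (WT_60h against WT_0h, limma adjusted p = 0.00588), a call that did not hold without WT_60h replicate 1. H3K4me3 at EBF2 did not pass the test between CBP_60h and WT_60h (log2 change 0.28, SE 0.19, limma adjusted p = 0.399).

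Gains from no listed base also came at NPR3, a natriuretic peptide receptor, EMX2, a homeobox factor of forebrain and urogenital tract, and PAX9, a paired box factor of tooth and axial skeleton. H3K4me3 covered 2.45 and 2.42 kb at NPR3, 2.50 and 2.36 kb at EMX2, and 2.51 and 2.09 kb at PAX9 in WT_60h, with 0 in both WT_0h and both CBP_0h libraries of each. PAX9 kept its H3K27me3 meanwhile, with 4.87 and 7.94 kb in WT_0h and 6.02 and 4.74 kb in WT_60h. Losses were led by 2 members without a gene on chromosomes 16 and 6, by TLX3, a neuronal homeobox factor, by another such member on chromosome 18, and by TBR1, a cortical T-box factor. The chromosome 6 member had H3K4me3 in WT_0h alone and passed the filter through that group. TLX3 had 1.64 and 1.99 kb of H3K4me3 in WT_0h and none in the 4 libraries of 60 h (limma adjusted p = 0.000357).

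SGC-CBP30 in proliferating cells went with shorter H3K4me3 in the members, as it did over all regions tested. CBP_0h against WT_0h called 67 members shorter and none longer of 202 (33.2%, beside 26.4% of regions tested, 24.9% shorter and 1.55% longer). Both WT_0h libraries had H3K4me3 in 119 members (14.05%) and in 672 of all regions (2.39%). Of these, 53 members and 245 regions had it in neither CBP_0h library. As shares of all members and all regions these are 6.26% and 0.872%, which mostly reflect the unlike starting numbers. H3K4me3 in both CBP_0h libraries and neither WT_0h library was found in no member and in 12 of all regions. The calls fell to 40 without WT_0h replicate 1 and 42 without replicate 2. Lists of equal length gave 31 shorter and 3 longer. The median log2 change was -0.36 in members and -0.06 over all regions. Quantile scaling moved these medians to 0.03 and 0.34 and gave 52 longer and 56 shorter. A group without any listed base took part in 40 of the 67 calls; such a group enters at the added 500 bp with no spread.

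Called members with no H3K4me3 in CBP_0h included GFI1, a zinc finger repressor of blood and inner ear (chr4:124619519-124627896), with 2.30 and 2.37 kb in WT_0h (limma adjusted p = 8.54e-05). PAX5, a B cell factor (chr1:237773156-237790860), had 1.77 and 1.78 kb in WT_0h, none in CBP_0h, 0.841 and 0.776 kb in WT_60h and 1.42 and 1.38 kb in CBP_60h (CBP_0h against WT_0h, limma adjusted p = 1.98e-06). Its H3K27me3 covered 2.07 and 8.83 kb in WT_0h and 17.1 and 16.3 kb in CBP_0h. GDF6, a BMP family ligand, went from 2.88 and 3.24 kb to 0.5 and 0 kb, and a member with HMX3 and HMX2, homeobox factors of the ear, from 1.22 and 1.47 kb to none. Both calls were lost without either WT_0h replicate, and the HMX call also without either CBP_0h replicate.

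Beside 24.9% of all regions, shorter H3K4me3 in CBP_0h was called in 12 of the 22 tested members at PAX, T-box, SOX, FOX and GATA factors, 14 of 34 at homeobox factors outside HOX, 8 of 15 at basic helix-loop-helix and zinc finger factors and 4 of 7 at HOX genes. None of these lists had a longer one. Of all 202 members tested, 67 were called shorter. Over all members the 67 calls fell to 40 and 42 without a WT_0h replicate; the list counts were not rerun without one. At the 6 tested WNT members no change was called.

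Members with H3K4me3 in all 8 libraries included the HOXB5 to HOXB8 genes, FOXF1, a forkhead factor of gut and lung mesenchyme, and PAX6, a paired box factor of eye and brain. At HOXB5 to HOXB8 it covered 9.40 and 8.88 kb in WT_0h, 5.10 and 4.87 kb in WT_60h, 4.48 and 5.12 kb in CBP_0h, and 4.10 and 3.68 kb in CBP_60h. It was shorter in WT_60h than in WT_0h (log2 change -0.81, SE 0.08, limma adjusted p = 0.00116) and in CBP_0h than in WT_0h (log2 change -0.86, SE 0.08, limma adjusted p = 0.00199). PAX6 had 3.81 and 3.47 kb in WT_0h, 1.58 and 1.32 kb in WT_60h, and 0.862 and 1.33 kb in CBP_0h, with both drops called (limma adjusted p = 0.0177 and 0.0142). FOXF1 held 4.87 and 4.77 kb in WT_0h and 2.39 and 3.06 kb in CBP_0h (limma adjusted p = 0.00732), and its 3.94 and 3.97 kb in WT_60h did not pass the test against WT_0h (limma adjusted p = 0.107).

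In differentiating cells the inhibitor went with shorter H3K4me3 at 50 members and longer at 15 (32.2% of 202, beside 30.1% of regions tested, 18.3% shorter and 11.9% longer). The calls fell to 29 without WT_60h replicate 1 and 40 without replicate 2, and 39 of the 65 had a group without any listed base. The longest loss was in a member on an unplaced scaffold with no gene, which had 6.15 and 6.31 kb in WT_0h, 7.02 and 6.63 kb in WT_60h, 6.30 and 7.66 kb in CBP_0h and none in CBP_60h (limma adjusted p = 9.56e-06). CACNA1H, a T-type calcium channel, had 1.12 and 1.26 kb in WT_60h and none in the other 6 libraries. HTR1D, a serotonin receptor, showed the same layout with 1.14 and 0.944 kb. Both passed the filter through WT_60h alone, so no p is given for them. IRX1, an Iroquois homeobox factor, had 1.08 and 0.926 kb in WT_60h and none in CBP_60h (limma adjusted p = 0.000119).

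The 5 largest gains were small, at SALL1, KIAA1644, DTX1, PRSS16 and NR2E1, from 0.295 to 1.09 kb per CBP_60h library and none in WT_60h. SALL1, a zinc finger factor of kidney and limb, had 0.666 and 1.09 kb in CBP_60h and none in the other 6 libraries. KIAA1644 and DTX1 likewise had none outside CBP_60h. SALL1, KIAA1644 and DTX1 thus passed the filter through CBP_60h alone. The PRSS16 and NR2E1 calls were lost without any 1 of the WT_60h, CBP_60h or CBP_0h libraries.

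H3K27ac could be tested in 16 members only. WT_60h against WT_0h called 7 longer and 1 shorter, 8 of 16, beside 50.3% of 161 regions (44.7% longer, 5.59% shorter). CBP_0h against WT_0h called 2 shorter (12.5%, beside 10.6%, 6.21% shorter and 4.35% longer). CBP_60h against WT_60h called 2 longer and 5 shorter (43.8%, beside 47.8%, 17.4% longer and 30.4% shorter). The shares were near the background in all 3 contrasts. The member with SLC26A10, a transporter family gene, and ARHGEF25, a guanine nucleotide exchange factor (chr5:22872335-22897315), had 1.61 and 1.15 kb in WT_60h and none elsewhere. FOXF1 had 0.918 and 0.478 kb in WT_60h and IRX1 0.568 and 0.471 kb, both with none in the other 6 libraries. EMX2 was the reverse, with 1.06 and 0.809 kb in CBP_60h and none elsewhere. These 4 passed the filter through the one group in which they were marked, so no p is given for them. The first contrast called 2 members without WT_60h replicate 1, 4 without WT_60h replicate 2 and 5 without WT_0h replicate 2. Quantile scaling gave 5 longer and 3 shorter there, and lists of equal length 1 and 2. The second called 1 member without any 1 of the WT_0h, CBP_0h or CBP_60h libraries. The third called 3 longer and 1 shorter without either WT_60h replicate, none longer and 7 shorter without CBP_60h replicate 1, and 3 longer with lists of equal length.

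**Figure D5:**
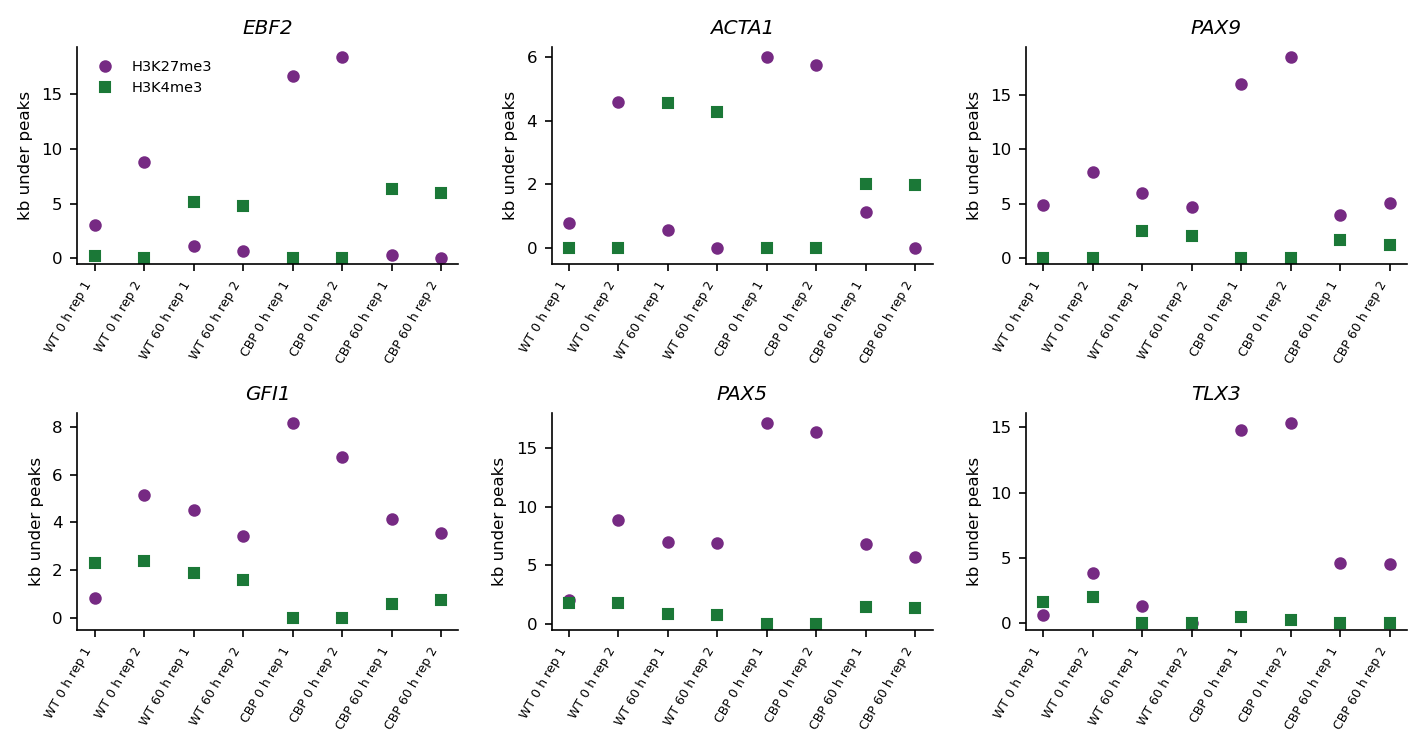
Length in kb under H3K27me3 (circles) and H3K4me3 (squares) peaks at 6 members in each of the 8 libraries. At EBF2 and ACTA1 H3K4me3 is present at 60 h, where H3K27me3 is at most 1.13 kb, while at PAX9 both marks are present at 60 h and at TLX3 H3K4me3 is limited to 0 h.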

How the data were processed

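The deposited files are broad peak lists, 1 per library. Trimmomatic, MACS2 2.1.0 and Sscrofa11.1 are named without their roles, per the submitters' processing notes, and the aligner, control and peak thresholds were not known here. Peak positions were used as deposited by the authors and are printed 1-based. The deposited −log10 p and −log10 q of each peak served only to rank or filter peaks within a list.

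Lengths under peaks per merged region were computed in Python 3.11.15 (numpy 2.4.6, pandas 2.3.3, figures with matplotlib 3.10.9) and tested in R 4.3.3 with limma 3.58.1 (trend and robust) on log2(length + 500 bp), for regions with at least 200 bp in 2 of the libraries fitted, with Benjamini-Hochberg adjustment within each contrast. The H3K27me3 fit used 6 libraries and those of H3K4me3 and H3K27ac 8 each. A log2 change on this scale understates changes of short peaks. Single values were compared with exact permutation tests. Scripts were tested on simulated data. The interaction contrast for H3K4me3 and the count of bases inside WT_0h peaks were added after the data were seen.

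Genes are 19550 protein-coding entries of the RefSeq table for Sscrofa11.1, without strand, so gene ends are not called start sites. Of 994 entries in the 20 lists, 962 were found there. The members and lists were chosen with earlier results of these data known. Named are the 12 members longest in WT_0h, up to 5 called members per direction and contrast with the largest change and no overlap of groups, at most 4 genes per list, members without other peaks, members with an active mark in all 8 libraries and the 3 with most length outside WT_0h peaks. Some members that meet this rule are not reported here. Alternatives were other added lengths, no filter, a −log10 q of 5, lists of equal length by −log10 p, quantile scaling, a replicate block, other member definitions, all 8 libraries in the H3K27me3 fit and leaving out each library. Peak lists give no read depth, so no counting interval could be given.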

Additional observations from a re-analysis of the deposited data

Results flagged for a closer look

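The effect of SGC-CBP30 on H3K4me3 was set at 60 h against 0 h in an interaction contrast that was added after the data were seen. It called 86 of the 202 members tested (42.6%, beside 42.2% of regions tested), 54 with a more positive and 32 with a more negative effect at 60 h. The count was 57 without WT_0h replicate 1, 55 without WT_60h replicate 1 and 56 without WT_60h replicate 2. Quantile scaling gave 37 and 52, and lists of equal length 33 and 32.

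Among the named members, PAX5 had a difference of 2.73 on the scale of log2 length plus 500 bp, a member without a gene on chromosome 6 (chr6:2827609-2859811) 2.68, and GFI1 1.53. In these, H3K4me3 was absent from CBP_0h and present in WT_0h. The chromosome 6 member had none at 60 h in either arm and passed the filter through WT_0h alone. The difference was 1.45 at SALL1, 1.17 at PRSS16, 1.06 at NR2E1, 0.94 at KIAA1644 and 0.89 at DTX1. At these, CBP_60h had short peaks and WT_60h none. SALL1, KIAA1644 and DTX1 passed the filter through CBP_60h alone.

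Negative differences were -4.02 at the member on an unplaced scaffold, -2.17 at a member without a gene on chromosome 4 (chr4:99293409-99302365), -1.76 at CACNA1H and -1.62 at HTR1D with LUZP1. All 4 had H3K4me3 in WT_60h and none in CBP_60h. CACNA1H and HTR1D with LUZP1 passed the filter through WT_60h alone. Groups without any listed base enter as the added 500 bp, so these sizes depend on that length.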

How the results depend on the processing

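Lists of peaks carry no depth, and most WT_0h and 60 h peaks were weak: at a deposited −log10 q of at least 5 no member remained, 1 member had a peak in both WT_60h libraries and 3 in both CBP_60h libraries. With lists of equal length these became 295 and 197. Directions that reversed between CBP_60h and WT_60h were the share of members with a peak (-11.2 points with lists of equal length) and the length inside members (-0.185 Mb with lists of equal length, -0.0511 Mb inside WT_0h peaks, -0.0824 Mb without WT_60h replicate 2). Leaving out 1 library each gave 0.118 to 4.60 points for the share and -0.0824 to 0.426 Mb for the length. The cause was not tested.

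H3K27me3 calls between CBP_60h and WT_60h (146) were 51 without the filter, 2 at −log10 q of 5, 94 with all 8 libraries, and 0 to 122 leaving out 1 library each. Those between CBP_60h and CBP_0h (673) were 241 with quantile scaling, 375 inside WT_0h peaks, and 270 to 682 leaving out 1 each. H3K4me3 calls between CBP_0h and WT_0h (67) were 42 at −log10 q of 5, 34 with equal lists, 108 with quantile scaling, and 40 to 65 leaving out 1 each. Between CBP_60h and WT_60h (65) they were 29 to 59 leaving out 1 each, between WT_60h and WT_0h (114) 83 to 117, and for the interaction (86) 55 to 80.

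H3K27ac calls between WT_60h and WT_0h (8) were 2 at −log10 q of 5, 3 with equal lists and 2 to 10 leaving out 1 each. Between CBP_0h and WT_0h (2) they were 1 with a longer length added, 1 without the filter, 1 with equal lists and 1 to 2 leaving out 1 each. Between CBP_60h and WT_60h (7) they were 2, 3 (all longer, against 2 longer and 5 shorter) and 4 to 8 under the same settings.

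With replicate number as a block, the H3K27me3 calls between CBP_60h and WT_60h were 93, and the H3K27ac calls between CBP_0h and WT_0h were 1. Deviations of same-numbered libraries correlated between -0.12 and 0.20, and with 2 numbers and no label of a shared culture the numbers do not establish pairs.

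For the 57 tests of named members, none of the 915 values available under alternatives was reversed. Of these, 770 kept their direction and their side of the threshold. The other 145 no longer passed it or showed no change. Lists of equal length and a −log10 q of 5 each gave a value for only 44 of the 57.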

Other observations

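Of 20 epithelial genes 5 were at members, beside 3.92% of all genes, and CDH1 and ESRP1 carried H3K4me3 in untreated differentiating cells and in neither CBP_60h library. These 2 were chosen after their values were seen. CDH1, the epithelial cadherin (chr6:18154220-18157809), had H3K4me3 over 0.693 and 1.31 kb in WT_60h and none in the other 6 libraries. Its H3K27me3 was 0.543 and 0.761 kb in WT_0h, absent in WT_60h, 3.58 and 2.24 kb in CBP_0h, and 1.16 and 0.676 kb in CBP_60h. ESRP1, an epithelial splicing regulator, had 0.469 and 0.426 kb in WT_0h, 0.649 and 0.405 kb in WT_60h and none in either treated group.

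Endothelial genes at members were SOX7, SOX17, FLT1 and ESAM, 4 of 18 (22.2%). SOX17, an endodermal and arterial factor, had 3.06 and 6.57 kb of H3K27me3 in WT_0h, 2.12 and 1.26 kb in WT_60h, 22.9 and 23.4 kb in CBP_0h, and 1.68 and 1.30 kb in CBP_60h. At FLT1, a VEGF receptor, H3K4me3 appeared at 60 h in both arms, with 0.404 and 0.347 kb in WT_60h and 0.522 and 0.514 kb in CBP_60h, and none at 0 h. Matrix genes at members were COL2A1, MMP9, FBLN1, COL11A2 and ACAN (5 of 39, 12.8%), and none of their members had H3K4me3 in any library. Of the adipogenic genes 1 of 21, PRDM16, a brown fat regulator, and 1 leukocyte gene of 22, CD8A, were at members.

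LOC102162127 (chr16:27757717-27760995) was at a member with H3K4me3 in all 8 libraries, over 2.35 and 2.33 kb in WT_0h and 1.14 and 1.41 kb in CBP_0h. Its H3K27me3 covered 0.470 kb in each WT_0h library, 3.28 and 3.26 kb in CBP_0h, and no base in the 4 libraries of 60 h.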
